A study of Mus musculus with 8 samples.

Results

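The 7 genes described here encode ZBP1, RIPK1, RIPK3, MLKL, CASP8, FADD and CFLAR, the core of the necroptosis and caspase-8 machinery. They were taken as the rows of the deposited table whose symbol equals Zbp1, Ripk1, Ripk3, Mlkl, Casp8, Fadd or Cflar. All 7 were found among 44343 genes. RNA was sequenced from pancreatic beta cells of mice that carried MipCreER, a Cre that tamoxifen switches on in cells using the insulin promoter, together with the R26R-EYFP reporter, which turns yellow-fluorescent where Cre has acted. The knockout group (KO, 4 libraries) came from Adar floxed/floxed mice and the control group (Het, 4 libraries) from Adar floxed/+ mice. Mice of both groups were 1 month old and received 2 doses of tamoxifen, 8 mg each. Islets were taken 7 days later and their YFP-positive beta cells were sorted. Controls thus shared the Cre, the reporter, the tamoxifen and 1 floxed Adar allele with the knockouts. The number of mice behind a library is not given in the labels. The p-values therefore rest only on the spread of these libraries, which may be technical.

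Necroptosis is a lytic form of regulated cell death. ZBP1 binds Z-form nucleic acid through its Z-alpha domains, and through RHIM motifs it recruits the kinase RIPK3, which phosphorylates the pseudokinase MLKL so that MLKL assembles in the plasma membrane and ruptures it. RIPK1 is the RHIM kinase that links death receptors to RIPK3. FADD and caspase-8 form a platform that cleaves RIPK1 and RIPK3, and CFLAR (cFLIP) sets whether caspase-8 restrains necroptosis or drives apoptosis. ADAR, the enzyme deleted here, converts adenosines of double-stranded RNA to inosines, and its interferon-induced isoform also holds a Z-alpha domain. Zbp1 and Mlkl are known interferon-induced genes.

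Among these genes Zbp1, the sensor, rose. In normalized counts Mlkl, the executioner, was above every control library in each KO library, but not in KO 2 once reads were scaled to the library total. Ripk3, the kinase between them, was at 5 to 28 reads per library over both groups. Zbp1 was 37.5 times higher in the mean of the 4 KO libraries than in the Het mean (18.7 times without KO 1), and its log2 fold change was 4.78 ± 0.42 (SE). The Het level behind these folds lay within the range of receptor genes that belong to other cells, as given with the per-length levels. Mlkl was 3.50 times higher in the mean, with a log2 fold change of 1.47 ± 0.44 that missed the adjusted threshold in the main test. Ripk1, Casp8, Fadd and Cflar had log2 fold changes from −0.07 to 0.68 and groups that overlapped. All 7 passed the filter on low values. At an adjusted p under 0.05 (Benjamini-Hochberg over all genes) limma called 1 of the 7 higher in KO, where it called 0.921% of all 21498 genes tested, and 0 lower, where it called 0.0233%. At an unadjusted p under 0.05 these counts were 2 higher and 0 lower, against 4.05% and 2.7% of all genes. With TMM scaling limma again called 1 of the 7 higher and 0 lower, against 0.637% and 0.0372% of all genes. EdgeR called 2 higher and 0 lower, against 0.673% and 0.0343%. DESeq2 called 1 higher and 0 lower, against 1.25% and 0.0178%. The gene called was Zbp1 in limma and Mlkl in DESeq2, which gave no p-value for Zbp1. Under the deposited scaling 2 of the 7 had all KO libraries above all Het libraries and 0 had all below, against 2.19% and 0.893% of all genes. Under TMM scaling the shares over all genes were 3.69% and 1.7%, and 2 of the 7 were above and 0 below. Values below are normalized counts, the deposited unit, and log2 fold changes are of log2(value + 1), KO relative to Het, unless another scale is named.

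The libraries held 5.37 to 15.9 M reads. They differed in overall level in a way that touches every gene here. Taking genes whose mean was 200 or more, the median log2 level relative to the average of the libraries was 0.88 in KO 1 and 0.96 in KO 2. It was −0.77 in KO 3, −0.56 in KO 4 and −0.46 to 0.22 across Het. Rescaling by TMM, computed from the reads of the tested genes, shifted the all-gene median fold change by −0.21 on the log2 scale, from 0.05 to −0.16, and its values are given beside the deposited ones for the 7 genes and for the pathway genes whose groups it changes. Xist and the Y-linked Ddx3y showed Het 1 to be male, KO 3 and KO 4 to be female and the remaining 5 libraries to mix the sexes. Beta cell markers took 36778 to 107144 RPM (reads scaled to a common library total) in KO and 93285 to 117739 in Het (10 genes summed), and each of the 10 was detected, so the sorted cells carried the markers of their labelled type.

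RefSeq promoter windows (build GRCm38.p6, 250 bases before to 50 after a start site) were available for 6 of the 7 genes, all but Zbp1. They were searched on both strands for the core of the interferon-stimulated response element (ISRE, the letters GAAA, any 2 bases and GAAA) and for the gamma-activated site (GAS, the letters TTC, any 3 bases and GAA), patterns that interferon-activated factors are known to bind. Of 32851 windows of all genes, 3.44% held the ISRE core and 8.30% the GAS letters. Below are Mlkl and Ripk3, the substrate and its kinase, and Ripk1 and Cflar, whose windows held an ISRE core. Capitals mark matches. The windows are chr8:111338156-111338455 (minus strand) for Mlkl, chr14:55788808-55789107 (minus) for Ripk3, chr13:34002624-34002923 (plus) for Ripk1 and chr1:58711241-58711540 (plus) for Cflar.
Mlkl: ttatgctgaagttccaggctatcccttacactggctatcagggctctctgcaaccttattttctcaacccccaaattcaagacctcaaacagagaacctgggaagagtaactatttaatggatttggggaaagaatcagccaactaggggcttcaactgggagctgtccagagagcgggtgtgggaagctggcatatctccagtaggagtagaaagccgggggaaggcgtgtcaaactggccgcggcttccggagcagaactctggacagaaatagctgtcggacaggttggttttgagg
Ripk3: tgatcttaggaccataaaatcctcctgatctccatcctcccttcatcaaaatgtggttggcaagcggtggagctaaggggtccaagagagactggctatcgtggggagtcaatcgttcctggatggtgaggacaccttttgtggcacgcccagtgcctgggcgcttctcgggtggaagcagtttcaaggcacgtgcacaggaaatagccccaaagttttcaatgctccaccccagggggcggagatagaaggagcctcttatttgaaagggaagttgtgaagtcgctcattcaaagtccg
Ripk1: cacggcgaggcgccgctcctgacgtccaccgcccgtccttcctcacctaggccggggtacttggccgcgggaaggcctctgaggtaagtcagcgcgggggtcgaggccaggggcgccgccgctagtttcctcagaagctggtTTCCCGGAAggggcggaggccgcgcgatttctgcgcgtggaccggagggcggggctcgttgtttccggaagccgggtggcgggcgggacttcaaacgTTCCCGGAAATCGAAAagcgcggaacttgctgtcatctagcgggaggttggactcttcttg
Cflar: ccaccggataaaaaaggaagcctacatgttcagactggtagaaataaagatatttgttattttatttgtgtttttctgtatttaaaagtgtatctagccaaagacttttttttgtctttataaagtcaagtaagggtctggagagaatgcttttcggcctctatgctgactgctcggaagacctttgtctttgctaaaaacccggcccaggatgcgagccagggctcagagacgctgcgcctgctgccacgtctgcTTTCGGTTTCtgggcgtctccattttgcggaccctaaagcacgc
The Ripk1 window held GAAATCGAAA at bases 246 to 255, overlapping a GAS match TTCCCGGAA at bases 240 to 248, and a further TTCCCGGAA at bases 143 to 151, counted from the 5′ end of the window. The Cflar window held TTTCGGTTTC, the ISRE core on the other strand, at bases 257 to 266. Neither pattern was found in the Mlkl, Ripk3, Casp8 or Fadd windows or in the other Ripk1 window. Ripk1 and Cflar, the 2 with an ISRE core, were not among the genes whose groups separated, and a match of letters shows no binding. Zbp1, whose groups did separate, had no window and was not searched, so these windows cannot relate the patterns to its rise.

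Levels of different genes were compared per length, as RPKM, reads per kb of annotated exon scaled to the reads in the table. In the Het libraries the order was Ripk1 at 7.98 ± 1.27 (SD, n = 4), Cflar at 6.35 ± 0.41, Mlkl at 4.33 ± 1.11, Casp8 at 2.93 ± 0.47, Fadd at 2.09 ± 0.48, Ripk3 at 0.85 ± 0.37 and Zbp1 at 0.73 ± 0.33 RPKM. Of these neighbours, Mlkl and Casp8, Casp8 and Fadd, and Ripk3 and Zbp1 overlapped between libraries. Within each Het library Mlkl was above Casp8 and Ripk3 above Zbp1, but Casp8 was not above Fadd in Het 3. In KO the order changed at both ends of the pathway. Zbp1 went from the lowest of the 7 to the highest mean, at 20.98 ± 13.5 RPKM, followed by Mlkl at 11.99 ± 6.54, Ripk1 at 9.04 ± 1.97, Cflar at 5.50 ± 1.14, Casp8 at 3.57 ± 0.46 and Fadd at 2.96 ± 0.56. Ripk3 was then the lowest, at 0.81 ± 0.65 RPKM. In KO, Ripk1 was separate from Cflar, and Fadd from Ripk3, while the other neighbours overlapped between libraries. Within each KO library Zbp1 was above Mlkl and Cflar above Casp8. Mlkl against Ripk1 and Casp8 against Fadd changed order between KO libraries.

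To see how far such levels lie above stray signal, the 7 genes were set beside 1542 genes of olfactory and vomeronasal receptors, whose known place is the sensory neuron. The median RPKM of these receptor genes was 0.13 to 0.38 in the Het libraries and 0.05 to 0.52 in the KO libraries, and it was lowest in KO 1 and KO 2. In the Het libraries Zbp1 exceeded 92.4% to 96.0% of the receptor genes, and in each KO library it exceeded 100% of them. Ripk3 exceeded 93.0% to 97.7% of the receptor genes over the 8 libraries, so its level lay within their range in both genotypes. The other 5 genes exceeded at least 98.8% of the receptor genes in each library.

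**Figure D1:**
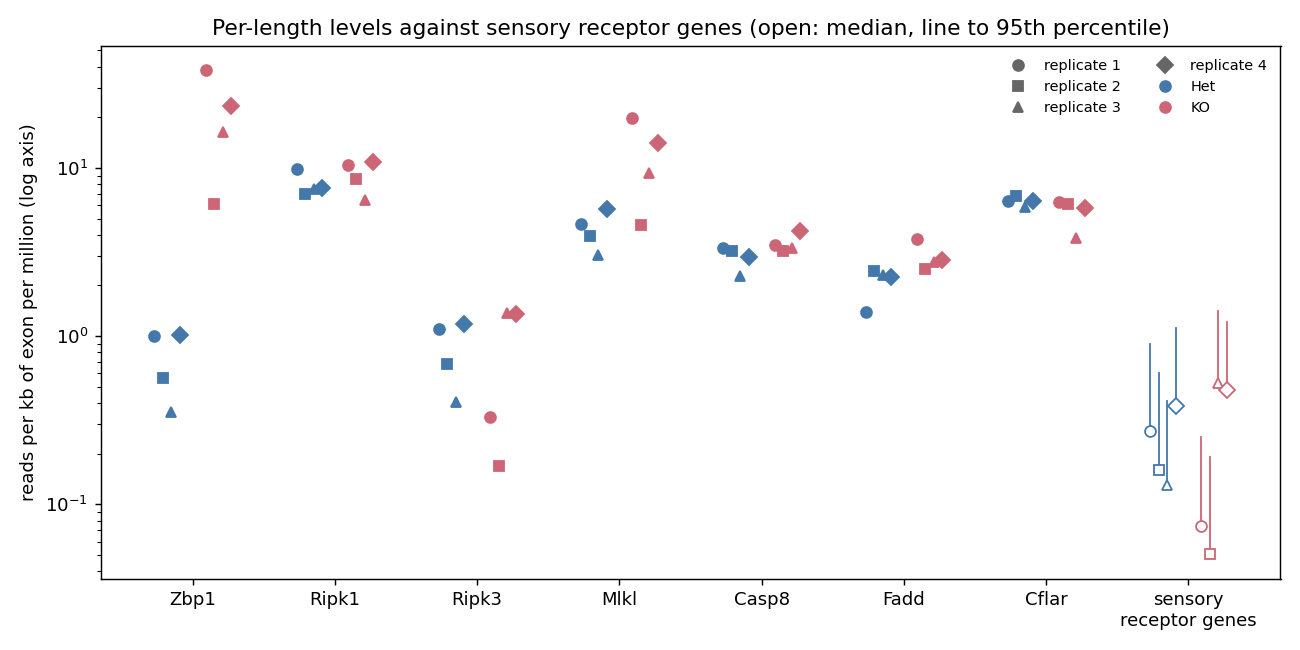
RPKM (log axis) of the 7 genes in each library, Het in blue and KO in red, with the marker shape giving the replicate number. At the right, open markers show the median of 1542 sensory receptor genes in each library and lines reach to their 95th percentile. Zbp1 lies near that line in Het and far above it in KO, and Ripk3 stays near it in both.

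Zbp1 (ENSMUSG00000027514, protein-coding, mm10 chromosome 2, 173206612 to 173218923, minus strand, no overlapping gene annotated), which senses Z-form nucleic acid, had normalized counts of 26.9, 17.5, 13.7 and 23.5 in Het 1 to Het 4. In KO 1 to KO 4 it had 1915, 360, 341 and 447. Every KO library was above every Het library, and KO 1 stood apart from the other 3. The Het values rest on 14 to 29 reads per library and the KO values on 278 to 2136. Relative to the Het mean of 20.4 ± 5.92 (SD, n = 4), the count was 93.8 times as high in KO 1, and the other KO libraries ranged from 16.7 (KO 3) over 17.6 (KO 2) to 21.9 (KO 4). The limma adjusted p was 8.49e-26. Its variance was pooled over genes under the deposited scaling, so it does not measure the spread of Zbp1 alone. Under TMM scaling the adjusted p was 0.00023 and the log2 fold change was 4.56 ± 0.45. Only 6 of the 21498 genes tested had a larger log2 fold change. Without KO 1 the KO mean was 382 ± 56.4, which is 18.7 times the Het mean, and the log2 fold change was 4.20. It was 5.46 in the 5 libraries of both sexes and 4.24 with KO 3 and KO 4 as the only KO libraries. The call held with edgeR's quasi-likelihood test (adjusted p = 2.7e-05), while DESeq2 gave a log2 fold change of 5.23 and no p-value.

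Mlkl (ENSMUSG00000012519, chromosome 8, 111311797 to 111338177, minus strand), the pseudokinase that permeabilizes the membrane, had counts of 80.7, 80.0, 77.1 and 85.9 in Het 1 to Het 4. In KO 1 to KO 4 it had 652, 177, 128 and 176. The Het libraries lay within 77.1 to 85.9, all KO libraries were above them, and KO 1 was again the highest. The log2 fold change was 1.47 ± 0.44 (limma adjusted p = 0.075) with a 95% interval of 0.61 to 2.33, and 1.25 ± 0.32 with TMM scaling (adjusted p = 0.111). The tests on whole reads passed in edgeR (log2 fold change 1.43, adjusted p = 0.049) and in DESeq2 (1.81, adjusted p = 0.021). Without KO 1 the KO mean was 160 ± 28.0, 1.98 times the Het mean, with a log2 fold change of 0.96 (limma adjusted p = 1.00). Leaving out KO 2, KO 3 or KO 4 instead brought the adjusted p to 0.041, 0.0050 and 0.025, and under TMM scaling to 0.0054, 0.099 and 0.193. The log2 fold change was 2.06 in the 5 libraries of both sexes and 0.88 with KO 3 and KO 4 as the only KO libraries (limma adjusted p = 2.21e-08 and 0.036), subsets in which 39.4% and 1.27% of all genes were called higher. Per length the groups overlapped, since Mlkl was at 4.59 RPKM in KO 2 and at 5.69 in Het 4.

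**Figure D2:**
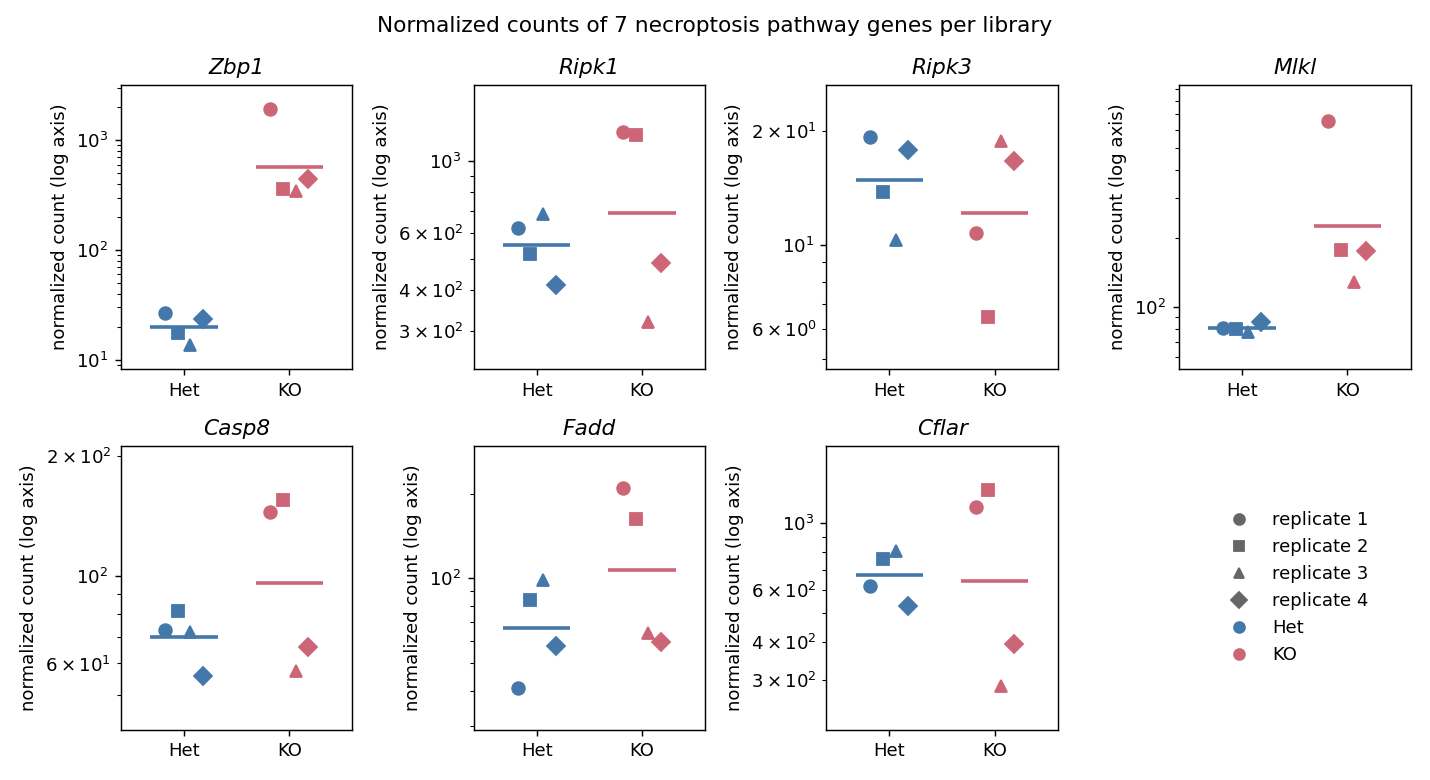
Normalized counts (log axis) of each of the 7 genes, with 1 point per library and a line at the geometric mean of the 4 libraries of a group. Zbp1 and Mlkl have all KO points above all Het points, and the other 5 overlap.

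Ripk3 (ENSMUSG00000022221, chromosome 14, 55784995 to 55788865, minus strand, no overlapping gene annotated), the kinase that ZBP1 engages and that phosphorylates MLKL, had counts of 19.2, 13.8, 10.3 and 17.8 in Het. In KO it had 10.8, 6.47, 18.8 and 16.7. The groups overlapped, with KO 2 below every Het library and the other 3 KO libraries inside the Het range. These values rest on 5 to 28 reads per library. In KO 2 the 5 reads carry a 95% exact Poisson interval of 1.62 to 11.7, which covers counting error only. The log2 fold change was −0.26 ± 0.47 (limma adjusted p = 0.964) with a 95% interval of −1.19 to 0.67, and −0.45 with an interval of −1.71 to 0.81 under TMM scaling. Under TMM scaling KO 1 (7.87) and KO 2 (4.32) lay below every Het library (lowest 9.96) and KO 3 was above them all. As RPM, Ripk3 ran from 0.39 in KO 2 to 3.17 in KO 3. That order of the 8 libraries was the same as for the median of the sensory receptor genes. The part of stray signal in the Ripk3 level was not tested. A low bulk level can also come from few cells with the RNA or little RNA in each, which cannot be told apart.

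Ripk1 (ENSMUSG00000021408, chromosome 13, 34002363 to 34037147, plus strand), the kinase that couples death receptors to both outcomes, had counts of 624, 516, 685 and 415 in Het and of 1232, 1201, 319 and 485 in KO. KO 1 and KO 2 lay above all Het libraries, KO 3 below all of them and KO 4 among them. The log2 fold change was 0.33 ± 0.54 (limma adjusted p = 0.961), and 0.11 with TMM scaling. Its exons share 752 bases with Serpinb6a, on the opposite strand, and Gm17084, on the same one, and whether counting used strand is not given in the sources used here.

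Casp8 (ENSMUSG00000026029, chromosome 1, 58795374 to 58847503, plus strand), the initiator protease, had 73.0, 81.3, 72.0 and 55.9 in Het and 144, 155, 57.4 and 66.1 in KO. Fadd (ENSMUSG00000031077, chromosome 7, 144577318 to 144582463, minus strand), the adapter that brings caspase-8 to the complex, had 41.0, 83.8, 98.6 and 57.5 in Het and 210, 163, 64.0 and 59.5 in KO. In both, KO 1 and KO 2 lay above every Het library, as for Ripk1. Unlike Ripk1, whose KO 3 was below every Het library, both had KO 3 and KO 4 inside the Het range. The log2 fold changes were 0.45 ± 0.41 for Casp8 (limma adjusted p = 0.922) and 0.68 ± 0.41 for Fadd (limma adjusted p = 0.841). With TMM scaling they were 0.24 and 0.46. Per length the Fadd groups did not overlap, at 1.38 to 2.44 RPKM in Het and 2.49 to 3.77 in KO, a narrow gap that neither the deposited nor the TMM scale showed. Fadd shares 239 bases of exon with the antisense gene Faddos.

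Cflar (ENSMUSG00000026031, chromosome 1, 58711508 to 58758884, plus strand, no overlapping gene annotated), the catalytically inactive relative of caspase-8, had counts of 615, 760, 810 and 530 in Het and of 1135, 1294, 287 and 397 in KO. Here KO 1 and KO 2 were above every Het library, while KO 3 and KO 4 were below every one. The log2 fold change over all libraries was −0.07 ± 0.54 (limma adjusted p = 0.995). TMM scaling gave −0.28 ± 0.28 (adjusted p = 0.751). With KO 1 and KO 2 only it was 0.86 (adjusted p = 0.0076), and with KO 3 and KO 4 only −0.99 (adjusted p = 0.035). Under TMM scaling the same subsets gave 0.20 (adjusted p = 0.343) and −0.77 (adjusted p = 0.020). The subsets differ both in overall level and in sex, since KO 1 and KO 2 mixed the sexes and KO 3 and KO 4 were female. The parts of level and sex in these values cannot be told apart. With KO 1 and KO 2 only, 45.5% of all genes were called higher (18.9% under TMM scaling), and with KO 3 and KO 4 only 7.45% were called lower (6.41% under TMM scaling).

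For Ripk1, Casp8, Fadd and Cflar the KO libraries fell on both sides of the Het mean under the deposited scaling. KO 1 and KO 2 lay 0.76 to 1.64 above the Het mean for these 4 genes, and KO 3 and KO 4 lay at −1.22 to −0.05. The same libraries had the high and the low median level over all well-expressed genes given above, and the part of that level in these values was not tested. TMM scaling narrowed the range to 0.17 to 1.06 in KO 1 and KO 2 and −0.98 to 0.19 in KO 3 and KO 4. Zbp1 was at least 3.40 above the Het mean in each KO library on either scale, with KO 2 the lowest under TMM scaling and KO 3 under the deposited scaling. Mlkl ran from 0.41 in KO 2 to 2.41 in KO 1 under TMM scaling, with Het 4 at 0.29.

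**Figure D3:**
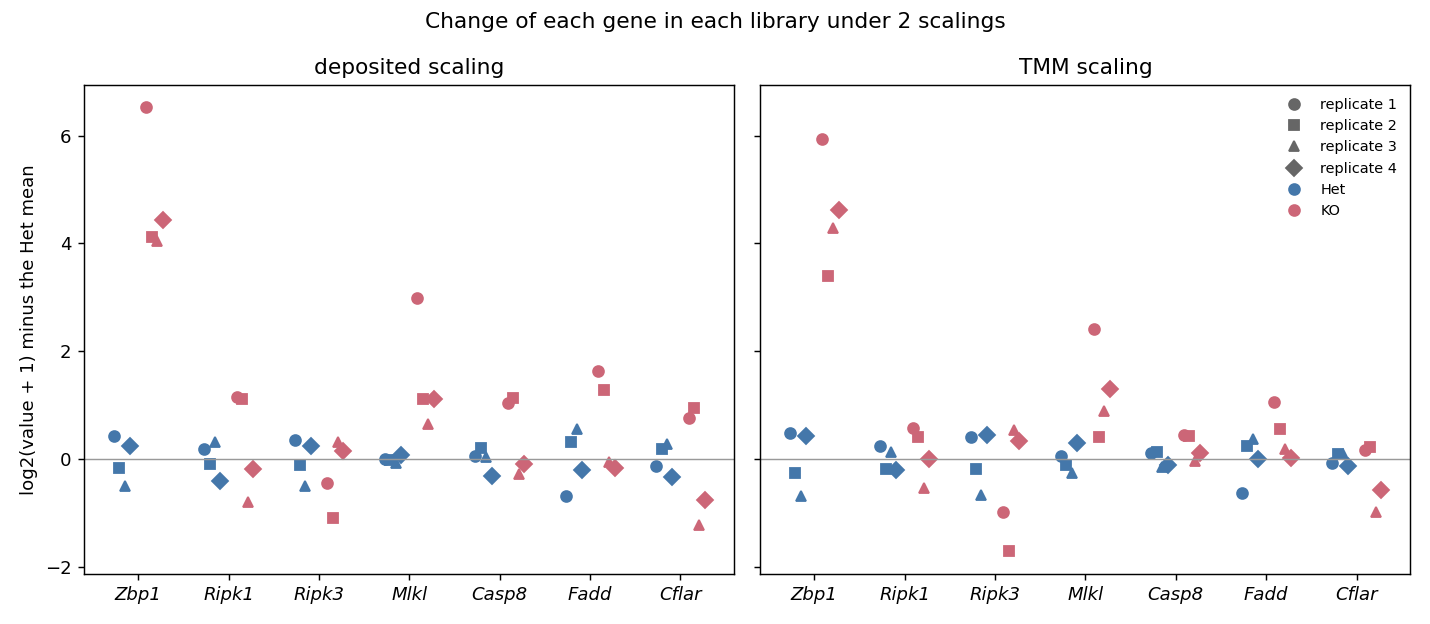
Log2(value + 1) of each gene minus its mean over the Het libraries, under the deposited scaling (left) and TMM scaling (right), with 1 point per library. Zbp1 is raised by 3.40 or more in every KO library, Mlkl by 0.41 or more, and the points of Ripk1, Casp8, Fadd and Cflar move together in KO 1 and KO 2 on the left and less so on the right.

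Ratios of reads within a library do not depend on the scaling, and 5 of them were compared by two-sided exact permutation tests over 70 arrangements, for which the smallest possible p is 0.0286. Adjusted values are over the 5 ratios. The log2 ratio of Zbp1 to Adar, the genes of the proteins with Z-alpha domains, was −5.58 ± 0.69 (SD, n = 4) in Het and −1.56 ± 0.83 in KO, a difference of 4.02 (exact p = 0.0286, adjusted p = 0.048, groups separate). Adar itself was at 744 to 1187 in Het and at 4030, 2365, 615 and 1343 in KO, with 3 KO libraries above the Het range and KO 3 below it. The table counts a gene as a whole, and reads outside the floxed part still count, so the Adar level is no check of the deletion. Adar shares 1365 bases of exon with Chrnb2, on the other strand.

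The log2 ratio of Zbp1 to Ripk3 was 0.46, 0.32, 0.39 and 0.38 in the Het libraries, with a SD of 0.06. These reads are not corrected for length. Per length the Het means were 0.73 RPKM for Zbp1 and 0.85 for Ripk3, both within the range of the receptor genes. In KO the ratio was 7.36, 5.54, 4.11 and 4.69, a difference of 5.04 (exact p = 0.0286, adjusted p = 0.048). The log2 ratio of Mlkl to Ripk3 was 2.44, 2.81 and 2.22 in Het 2 to Het 4 and lower in Het 1. In KO it was 5.81 in KO 1, 4.52 in KO 2 and 3.35 in KO 4, and KO 3 fell inside the Het range (difference 1.73, exact p = 0.057, adjusted p = 0.071). Both ratios rest on Ripk3, whose level lay within the range of the receptor genes. The log2 ratio of Ripk3 to Ripk1 was −5.12 ± 0.61 in Het and −5.71 ± 1.55 in KO (difference −0.59, exact p = 0.486).

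The log2 ratio of Cflar to Casp8 was 3.05, 3.21, 3.48 and 3.23 in Het and 2.97, 3.05, 2.30 and 2.57 in KO, a difference of −0.52 (exact p = 0.0286, adjusted p = 0.048). The groups were separate but close, since KO 2 at 3.048 lay just under Het 1 at 3.052, and KO 3 and KO 4 were the lowest. The p rests on that small gap, and the 57 Casp8 reads of Het 1 have a 95% exact Poisson interval of 43.2 to 73.9.

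**Figure D4:**
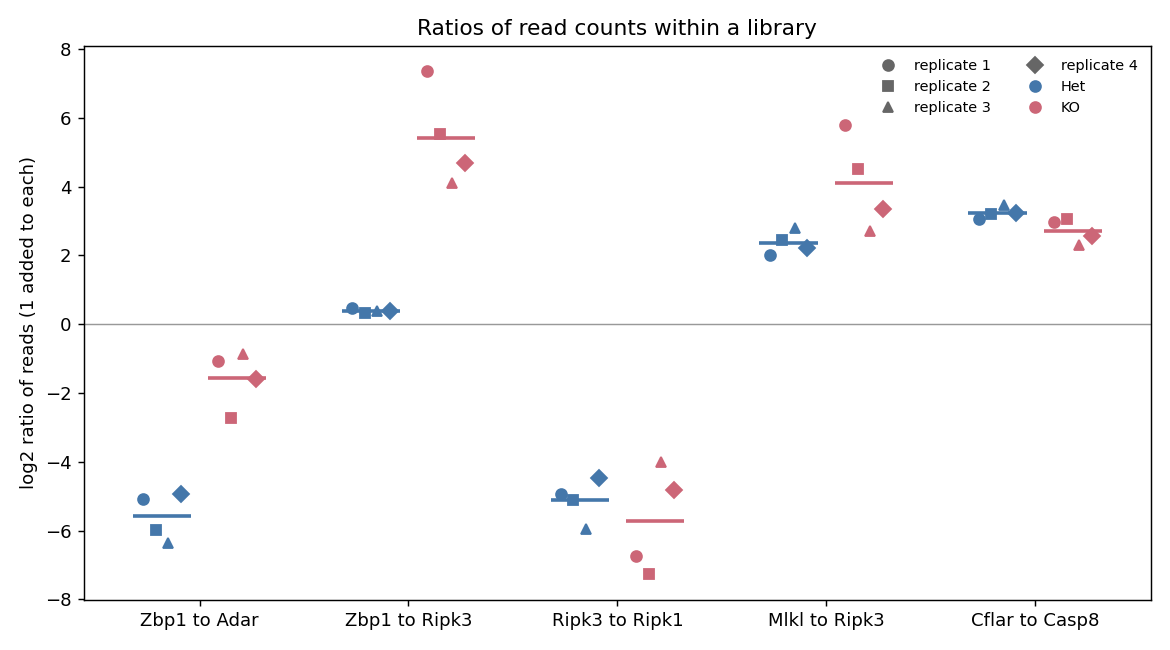
Log2 ratio of the reads of 2 genes in the same library, with 1 point per library and a line at each group mean. The group means differ by 4.02 for Zbp1 against Adar, 5.04 for Zbp1 against Ripk3 and −0.52 for Cflar against Casp8. Points of the groups do not overlap in these, though barely for Cflar against Casp8, and the other 2 ratios overlap.

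The genes most like Zbp1 across libraries were sought among 11064 genes of mean 50 or more, by the root mean square difference over the 8 libraries of the TMM-scaled log2 level relative to the Het mean. The nearest were Isg15, a ubiquitin-like modifier (difference 0.35), Ifi44 (0.36), Ifit3, which binds foreign RNA with its relatives (0.38), Bst2, which tethers virus particles (0.41), and Ifnl2, an interferon lambda (0.42). Their log2 fold changes with TMM scaling were 4.27 to 4.72, against 4.56 for Zbp1, a nearness that follows from how they were chosen. Ifit3 and Ifnl2 have near-identical relatives, so their counts are uncertain within the family. The genes nearest to Mlkl were Il18bp, which neutralizes interleukin-18 (difference 0.13), Epsti1 (0.23), Klf8, a transcription factor (0.23), Parp12, an ADP-ribosyltransferase (0.25), and Trim66 (0.25). Il18bp, the nearest by this measure, was at 2.27, 0.39 and 0.97 in KO 1 to KO 3, where Mlkl was at 2.41, 0.41 and 0.90.

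**Figure D5:**
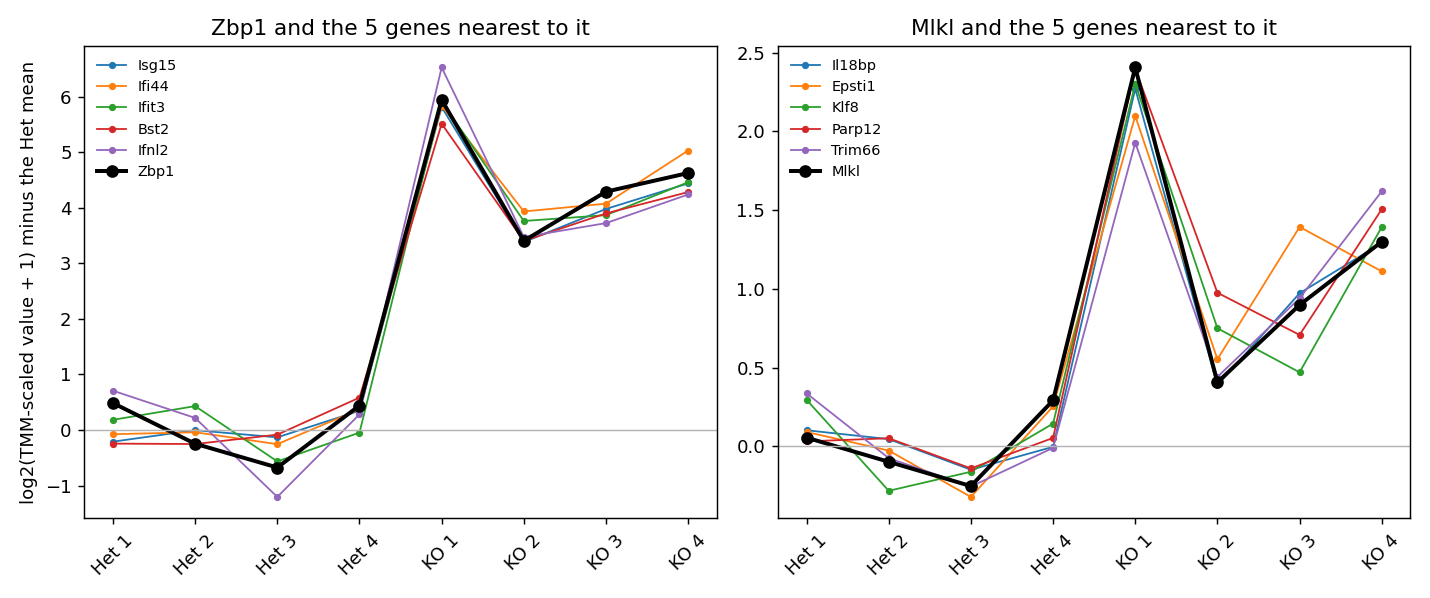
TMM-scaled log2 level relative to the Het mean in each of the 8 libraries for Zbp1 and the 5 genes nearest to it (left) and for Mlkl and the 5 nearest to it (right). Each black line is the gene itself. The left group lies at 3.38 to 6.52 in the KO libraries and the right group at 0.39 to 2.41, with KO 1 highest in both.

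Around the 7 genes, 59 further genes of the pathway were read from the same test. Limma called 1 of them higher and 0 of them lower, as did TMM scaling, edgeR and DESeq2. The shares of all genes called higher were 0.921%, 0.637%, 0.673% and 1.25% in that order. Those called lower were 0.0233%, 0.0372%, 0.0343% and 0.0178%. An unadjusted p under 0.05 was reached by 5 and 0 of the 59, where 4.05% and 2.7% of all genes reached it. Their median log2 fold change was 0.30, against 0.05 over all genes tested, and 0.08 against −0.16 with TMM scaling. The genes compared were not matched for level. The part of the libraries' overall level in this difference was not tested. The gene called was Tnfaip3, which encodes A20, the ubiquitin-editing enzyme that restrains RIPK1 and RIPK3 signalling. It was at 228, 341, 324 and 326 in Het and at 2728, 1296, 513 and 1078 in KO, every KO library above every Het library. Its log2 fold change was 1.97 ± 0.54 (limma adjusted p = 0.027). TMM scaling gave 1.75 ± 0.31 (adjusted p = 0.0071). Leaving out any of Het 1 to Het 4 or KO 1 ended that call under the deposited scaling, where 0 pathway genes were then called. With TMM scaling 1 or more was called on leaving out any library.

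Among receptors and adapters that feed RIPK1 or RIPK3, 0 of 9 were called by limma, edgeR or DESeq2. At an unadjusted p under 0.05 limma had 2 of the 9 higher, against 4.05% of all genes. Tlr3, an endosomal receptor for double-stranded RNA that reaches RIPK3 through TICAM1, was at 88.4 to 109 in Het and at 480, 278, 109 and 224 in KO, where KO 3 lay level with the highest Het library (log2 fold change 1.283, limma adjusted p = 0.242). With TMM scaling all its KO libraries were above all Het libraries (1.06, adjusted p = 0.088). Tnfrsf10b, the mouse TRAIL receptor, was at 26.6 to 46.3 in Het and 50.5 to 146 in KO, above every Het library (0.95, limma adjusted p = 0.516), but with TMM scaling the groups overlapped (0.74, adjusted p = 0.611). Of the 13 ubiquitin ligases, deubiquitinases and scaffolds of the TNF receptor complex, Tnfaip3 alone was called, and the next by p was Xiap, an inhibitor of apoptosis protein, at 302 to 508 in Het and 290 to 1468 in KO (0.92, limma adjusted p = 0.823). Of 10 kinases and partners that restrain RIPK1, 0 were called by any of the 3 tools and limma had 0 at an unadjusted p under 0.05. The smallest p there were those of Tab3 (0.84) and Tab2 (0.65), adapters of the kinase TAK1.

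Of 12 regulators and partners of RIPK3 and MLKL and 8 genes of the ESCRT machinery that removes damaged membrane, 0 were called by the 3 tools, also with 0 at an unadjusted p under 0.05 in limma. Their median log2 fold changes were 0.22 and 0.37. Pgam5, a mitochondrial phosphatase, had 0.65, Itpk1, an inositol phosphate kinase, 0.41, and Tsg101 and Chmp1a, ESCRT subunits, 0.49 and 0.41. Of 7 genes downstream of caspase-8, 0 were called by the 3 tools. At an unadjusted p under 0.05 limma had 2 of the 7 higher, against 4.05% of all genes. Among these was Gsdmd, the pore-forming gasdermin, at 27.5 to 55.0 in Het and 61.8 to 157 in KO (1.24, limma adjusted p = 0.144). All its KO libraries were above all its Het libraries.

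Of 6 interferon-regulated transcription factors that act upstream of genes such as Zbp1, limma called 1 higher and 0 lower, against 0.921% and 0.0233% of all genes. The median log2 fold change of the 6 was 1.37, against 0.05 over all genes tested, again not matched for level. DESeq2 called 4 higher and edgeR 1, against 1.25% and 0.673% of all genes. Irf7, which amplifies the interferon response, rose, with 232 to 300 in the Het libraries and 6887, 1896, 1090 and 1851 in KO 1 to KO 4 (3.11 ± 0.55, limma adjusted p = 5.85e-06). Its order over the KO libraries put KO 1 highest, as for Zbp1 and Mlkl.

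Zbp1, Ripk3 and Mlkl are also expressed by immune cells, so markers of leukocytes were read in the same libraries. The 6 general leukocyte markers summed to 7.02 to 19.0 RPM in Het and to 4.09, 2.47, 23.3 and 22.9 in KO 1 to KO 4. These sums put the 8 libraries in the same order as the median of the sensory receptor genes did, from KO 2 as the lowest to KO 3 as the highest, and the part of stray signal in them was not tested. Macrophage markers (10 genes) summed to 41.1 to 67.0 in Het and 15.2 to 41.5 in KO, with C1qa the most abundant, and C1qa was called lower in KO (log2 fold change −1.79, limma adjusted p = 0.0051). Of the 6 tested, 0 had a positive log2 fold change and limma called C1qa alone. In KO 3, Adgre1, Lyz2 and Fcgr1 lay above every Het library, and Cd68, Csf1r, Itgam and C1qa below every one. C1qb and C1qc had 3 to 10 reads per library. Whether these values follow the number of macrophages was not tested. T and NK cell markers (7 of 8 listed genes matched a row) summed to 6.24 to 16.6 in Het and 2.08 to 17.9 in KO, with Cd4 highest. B cell markers (4 genes, Ms4a1 highest) summed to 6.01 to 13.8 and 2.31 to 18.4, and neutrophil markers (4 genes, Ly6g highest) to 1.09 to 4.94 and 0.46 to 4.96. No marker was at 0 reads in all libraries, and 0 of these immune lists had a member called higher by limma, edgeR or DESeq2. Endothelial (5 genes, Kdr highest), stellate (5, Col1a2 highest), other endocrine (7, Ttr highest) and acinar and duct markers (6, Krt19 highest) overlapped between the groups, at 11.9 to 30.3, 10.8 to 29.0, 152 to 281 and 7.82 to 22.4 in Het and 4.32 to 34.4, 3.09 to 41.9, 163 to 431 and 3.21 to 15.9 in KO. Of those lists limma called 1 member, Krt19, lower (log2 fold change −1.69, limma adjusted p = 0.0049), a call lost with TMM scaling (adjusted p = 0.162).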

How the data were processed

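RNA of sorted beta cells was compared between 4 Het and 4 KO libraries, grouped and numbered by sample title. The members and lists were chosen with earlier results of these data known. Per the submitters' processing notes, the tools were STAR 2.7.3a, HTSeq, UMI-tools, FastQC 0.11.8 and DESeq2 1.28.1, with build mm10. Annotation and strand setting are not given in the sources used here. The deposited signal values are normalized counts, gene counts divided by a size factor per library. Dividing each library by its smallest value above 0 gave whole reads for 100% of values (tolerance 0.001).

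Limma 3.58.1 in R 4.3.3 tested log2(value + 1) for genes whose mean was 10 or more, two-sided, with genotype as the only term and eBayes trend and robust settings. Under the deposited scaling its total degrees of freedom were 128988 (17.3 with TMM scaling). SE, intervals and p-values under that scaling thus rest on a variance pooled over genes, not on each gene's own spread. The smallest p-values are therefore far smaller there. Alternatives were pseudocounts of 0.5 and 8, no filter, means of 50 or 200, TMM and quantile scaling, other eBayes settings, array weights, a replicate block, edgeR 4.0.16 and DESeq2 1.42.0 on whole reads (157 and 211 genes higher), and left-out libraries or subsets. Ratios were tested with scipy 1.17.1. Lengths and 1-based coordinates are of GENCODE M21 (mm10). Named are the 7 genes, Adar, pathway genes called or with the 2 smallest p of a list, the 5 genes nearest to Zbp1 and to Mlkl, and the top marker of each list. Some genes that this rule names are not reported here. The receptor gene comparison and TMM scaling of subsets were chosen after seeing the data. The scripts were tested on simulated data.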

Additional observations from a re-analysis of the deposited data

Results flagged for a closer look

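The Zbp1 count of KO 1, 1915, stood far from the other 3 KO libraries at 341 to 447, with a gap of 0.933 of the group's range. The Mlkl count of KO 1, 652, stood apart in the same way from 128 to 177, with a gap of 0.906 of the range. Both exceed Dixon's 95% critical value of 0.829 of the range for 4 samples. Over the 7 genes, Adar and the 5 ratios, 26 groups of 4 were examined and 2 stood out, and chance alone flags about 1 in 20. As RPM KO 1 was also the highest for both, but closer to the rest (Zbp1 134 RPM against 82.7 in KO 4, Mlkl 45.8 against 32.5).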

How the results depend on the processing

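Zbp1 was called in each limma and edgeR fit (log2 fold change 4.10 to 5.46, highest adjusted p 0.033), and Mlkl was called in 14 of 34 alternatives (0.87 to 2.06). Cflar turned to 0.86 with KO 1 and KO 2 only and to 0.82 in the libraries of both sexes. The count of the 7 called higher was 2 with array weights, edgeR, KO 3 and KO 4 only on either scaling and TMM with the replicate block, 6 with KO 1 and KO 2 only and in libraries of both sexes, and 4 and 3 for these under TMM. Over all genes 0.986% were called higher with array weights, 0.673% in edgeR and 1.43% under TMM with the replicate block. With KO 3 and KO 4 only the share was 1.27% (1.54% under TMM). It was 45.5% with KO 1 and KO 2 only and 39.4% in libraries of both sexes (18.9% and 13.5% under TMM). The count called lower was 1, Cflar, with KO 3 and KO 4 only on either scaling, against 7.45% of all genes (6.41% under TMM). It was 1, Ripk3, with KO 1 and KO 2 only under TMM (log2 fold change −1.34, adjusted p = 0.027), against 28.1% of all genes. The RPM of Ripk3 was lowest in KO 2 and KO 1, as was the receptor gene median.

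Genes called higher overall numbered 320 with quantile scaling, 404 with a mean of 200 or more and TMM factors from those genes, 127 without trend and robust settings, 9780 with KO 1 and KO 2 only and 8464 in libraries of both sexes. Under TMM these subsets gave 4057 and 2904, and KO 3 and KO 4 only gave 331. Genes called lower numbered 2 with a mean of 50 or more, 8 with TMM, 138 with quantile scaling, 284 with a mean of 200 or more, 1 without trend and robust settings, 166 with array weights, 8 in edgeR and 3 in DESeq2. They numbered 3458 with KO 1 and KO 2, 1602 with KO 3 and KO 4, and 2385 in libraries of both sexes, and 6035, 1379 and 4470 under TMM. Pathway genes called higher were 0 with no filter, 3 with a mean of 200 or more, 53 with KO 1 and KO 2 only and 49 in libraries of both sexes. Under TMM they were 32 with KO 1 and KO 2, 4 with KO 3 and KO 4, and 24 in libraries of both sexes. Those called lower were 1 with a mean of 200 or more, 5 with KO 3 and KO 4 only, and 2, 4 and 1 under TMM in the order above. The causes were not tested.

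Leaving out 1 library under the deposited scaling gave 105 to 337 genes higher and 1 to 45 lower, with 1 to 2 of the 7 genes and 0 to 3 pathway genes higher. Under TMM, 104, 91, 130 and 112 genes were higher without Het 1 to Het 4 and 92, 214, 300 and 106 without KO 1 to KO 4. Those lower were 3, 2, 8, 8, 5, 77, 22 and 3 in that order, and again 1 to 2 of the 7 genes and 1 to 3 pathway genes were higher. The ratios kept their sign throughout, but with a library left out, or paired, their test cannot pass the threshold. Replicate numbers do not pair the libraries (correlations −0.28, 0.26, −0.54 and 0.62). With the replicate block 182 genes were called higher, 5 lower and 0 pathway genes, and under TMM 307, 96 and 2. A mean of 50 or more drops Ripk3 from the test, and of 200 or more also Mlkl, Casp8 and Fadd. The 5 to 29 reads of Zbp1 in Het and of Ripk3 limit their precision.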
